A study of Mus musculus with 12 samples.

Results

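The interferon response genes are a list of 45 mouse genes known to be switched on by interferons, of which 43 were measured among the 18194 genes on the arrays. The list was chosen by name, with earlier results of these data known. Its shares, set beside those of all genes below, are therefore descriptive. A gene was represented by its brightest probe set over the 12 arrays, and only probe sets annotated to 1 symbol were used. Isg15 and Ifi44 had no such probe set and were left out. The 43 genes had 72 single-symbol probe sets, and 19 of them had more than 1. The study compared mouse prostate labelled as Med1 knock out (MT) with wild type prostate (WT). The protein made from Med1 belongs to Mediator, which links transcription factors to RNA polymerase II. Total RNA of 4 groups was hybridised to 12 arrays, 3 in each group: MT ventral prostate, WT ventral prostate, MT lateral prostate and WT lateral prostate, all from mice aged 16 weeks. The sources used here do not give the strain, the deleted part of Med1, the promoter of any recombinase, or whether an array held 1 mouse or a pool.

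Med1 was read first on each array. In ventral prostate its log2 signal was 8.90, 8.99 and 8.68 in MT against 9.48, 9.52 and 9.29 in WT, a difference of -0.57 ± 0.12 (SE; adjusted p = 0.0119, limma). In lateral prostate it was 8.40, 8.34 and 8.44 in MT against 8.58, 8.74 and 8.23 in WT, and the difference of -0.13 did not pass (adjusted p = 0.622, limma). The lateral arrays are therefore called MT only because they carry that label, and every lateral direction below rests on it. The lateral minus ventral difference in Med1 did not pass either (0.44, adjusted p = 0.136, limma), so the lobes were not shown to differ in it. Averaged over both lobes Med1 was lower in MT (-0.35, adjusted p = 0.0328, limma). That average was lost in 9 of 12 single-array omissions. The ventral Med1 call ended without MT ventral array 3 (-0.48, adjusted p = 0.0518). Arrays of 1 group correlated at 0.992 to 0.996 over all probe sets. Sorted signals of the arrays spanned a median of 0.0493 in ventral and 0.0786 in lateral prostate, and 0.388 over all 12 arrays, so levels are compared between lobes only as ranks within an array. A pair of arrays stood apart in seminal vesicle transcripts: Svs2, a seminal vesicle secretory protein, read 7.55 on WT ventral array 3, against 2.80 and 2.99 on the other two WT ventral arrays. It read 8.71 on MT lateral array 3, against 11.89 and 11.99 on the other two MT lateral arrays. Results are therefore given with and without these 2 arrays. This does not remove the seminal vesicle difference between the lateral groups. The summed linear signal of 6 seminal vesicle markers was 1703 to 9236 in MT lateral prostate, against 38925 to 41098 in WT lateral prostate. Its part in the lateral differences was not tested. Whether the arrays of a group stem from different mice is not stated in the labels. The p-values given here thus reflect array-to-array spread, part or all of which may be technical.

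Interferons are secreted by cells that detect viral nucleic acid or other danger, and they act on nearly every cell type. Type I interferons bind the receptor Ifnar1 and Ifnar2, the kinases Jak1 and Tyk2 then phosphorylate STAT proteins, and a complex of STAT proteins with Irf9 enters the nucleus. It binds the interferon-stimulated response element and switches on genes whose products block viral entry, replication and translation, degrade RNA, and display peptides on MHC class I. Interferon gamma uses another receptor and acts largely through the gamma-activated site. Most cells keep a low standing expression of these genes without infection.

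The promoters of the list were searched for both elements, as background to the values that follow. The window ran from 250 bases before to 50 bases after the annotated start, taken from RefSeq on GRCm38.p6, and 34 of the 45 genes had one. The core, GAAA and GAAA with any 2 bases between them, on either strand (TTTC and TTTC when read on the other), stood in 13 of 34 (38.2%), against 1079 of 27025 genes in the table (3.99%), counting a gene once if any of its windows held it. Counted by window, the shares were 31.7% of the list's windows and 3.44% of all windows. The gamma-activated site TTCNNNGAA, which reads the same on both strands, stood in 8 of 34 (23.5%), against 9.55% of all genes. Both motifs were searched separately, so a promoter could count for both. A match is a string of letters and not a shown binding site. Among measured genes with a window, the core was in 4 of 10 lower in MT ventral prostate and in 2 of 6 lower in MT lateral prostate. It was in 6 of 17 lower or higher in neither. The gamma-activated site was in 1 of 10, 0 of 6 and 6 of 17 genes of the same 3 sets. These counts are small and were not compared by a test. Rtp4, Usp18, Mx1, Mx2, Parp9 and Nlrc5, each lower in MT in a lobe, had no window and were not searched. For 8 genes the stretch around the core is shown, written 5′ to 3′ on the gene's own strand with the core in capitals. They are the genes lower in MT in a lobe that held a core, and Ifit1 and Ifih1, which did not pass in either lobe:
Stat2, chr10:128270256-128270305, plus strand: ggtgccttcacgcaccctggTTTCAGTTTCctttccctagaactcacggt
Cxcl10, chr5:92349073-92349122, minus strand: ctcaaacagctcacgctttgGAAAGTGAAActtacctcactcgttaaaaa
Rsad2, chr12:26456543-26456592, minus strand: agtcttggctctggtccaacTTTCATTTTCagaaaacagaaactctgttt
Ifit3, chr19:34583353-34583436, plus strand: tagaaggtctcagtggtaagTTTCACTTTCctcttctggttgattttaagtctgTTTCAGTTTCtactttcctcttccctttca
Ddx58, chr4:40239794-40239843, minus strand: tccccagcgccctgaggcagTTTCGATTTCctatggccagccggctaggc
Gbp2, chr3:142620584-142620633, plus strand: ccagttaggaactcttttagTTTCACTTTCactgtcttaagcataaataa
Ifit1, chr19:34640765-34640833, plus strand: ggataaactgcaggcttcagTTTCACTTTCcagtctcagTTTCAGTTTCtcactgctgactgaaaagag
Ifih1, chr2:62646206-62646243, minus strand: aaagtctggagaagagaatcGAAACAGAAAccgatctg

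Ifit1 and Ifit3 each held 2 cores. The first of each lay 104 bases before the start in Ifit1 and 156 bases before it in Ifit3. In Stat2 the core lay 222 bases before the start, in Cxcl10 213, in Rsad2 120 and in Gbp2 59. The core of Ddx58 lay 2 bases after the start and that of Ifih1 32 bases after it. Several genes of the list also lie side by side in the genome. The next protein-coding gene after Rsad2 was Cmpk2 on chromosome 12, after Ifit2 it was Ifit3 on chromosome 19, and after Oasl2 it was Oasl1 on chromosome 5. Parp14, Dtx3l and Parp9 were consecutive on chromosome 16, and Psmb9, Tap1, Psmb8 and Tap2 on chromosome 17.

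In ventral prostate, 15 of the 43 interferon response genes were lower in MT. The question was which of them differ between the genotypes in this lobe. At an adjusted p under 0.05 (limma, Benjamini-Hochberg over all 18194 genes, the rule for every call below), 15 of the 43 were lower, 1 was higher and 27 did not pass. Over all genes 9.08% were called, 3.2% lower and 5.88% higher, so that 64.7% of all calls were higher; with each array centred on its median this was 48.2%. The median difference of the 43 was -0.28, against -0.020 over all genes, and single differences ran from -0.94 (Mx2) to 0.44 (Ifit2). All 3 MT arrays lay below all 3 WT arrays for 23 of the 43, against 14.6% of all genes. They lay above them for 1, against 14.9% of all genes. At an unadjusted p under 0.05 the count in either direction was 26 of 43, against 24.7% of all genes. Without the 2 arrays that stood apart, 9 genes were lower and 0 higher. The count was also 9 without WT ventral array 1 alone.

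**Figure D1:**
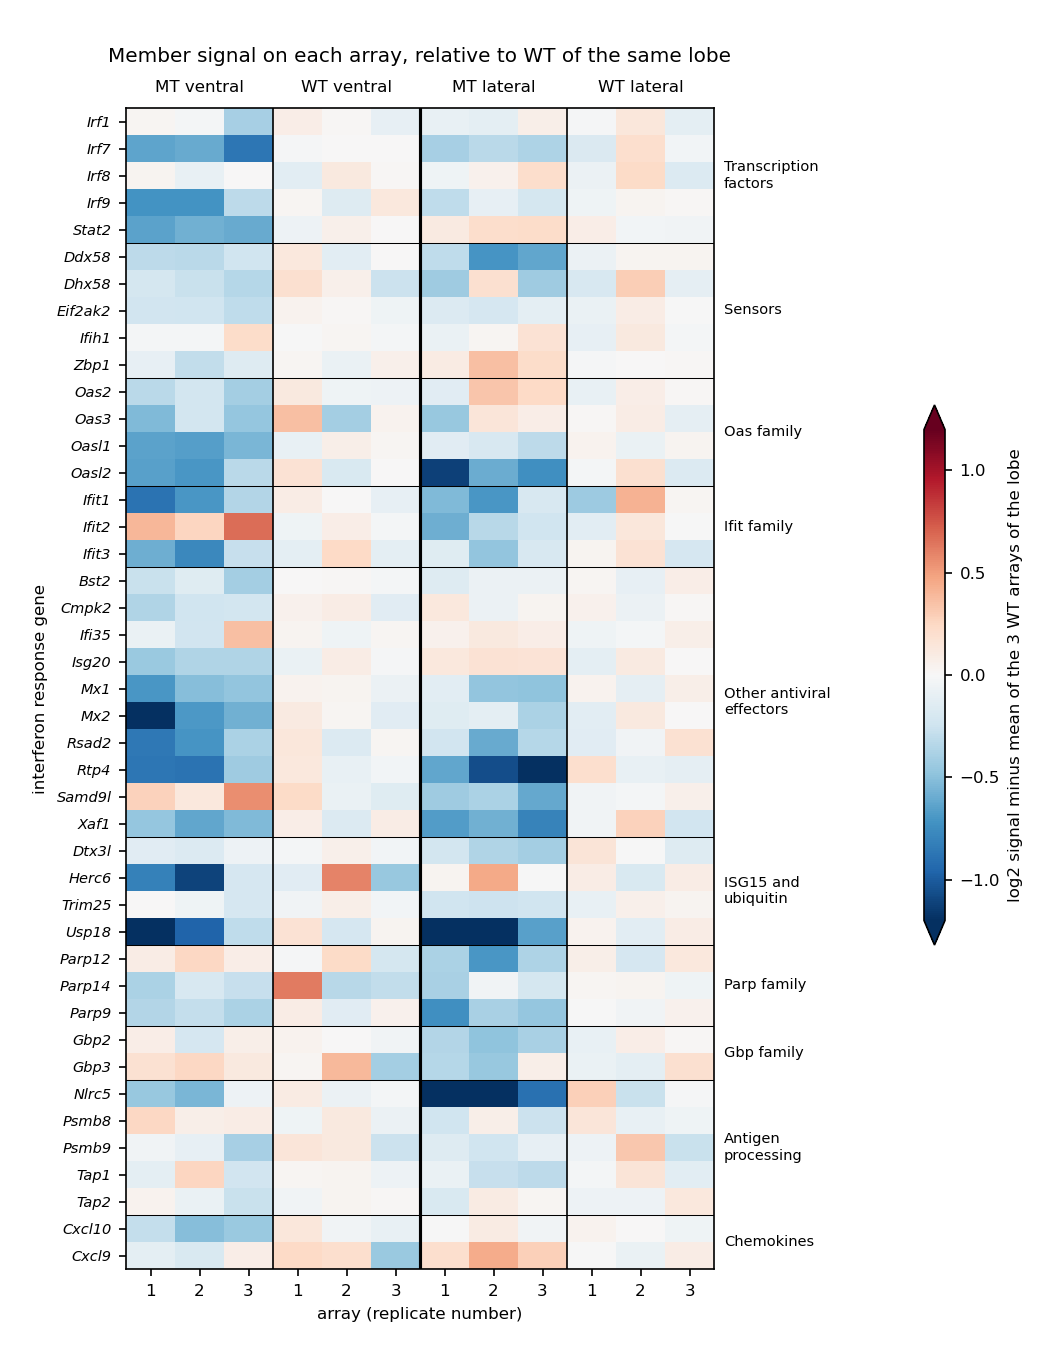
The log2 signal of each of the 43 genes on each of the 12 arrays, minus the mean of the 3 WT arrays of the same lobe, with genes in rows by role and arrays in columns by group. The 3 MT ventral columns have medians of -0.318, -0.238 and -0.307, and the 3 MT lateral columns have medians of -0.223, -0.202 and -0.214, while the WT columns lie between -0.032 and 0.039.

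The transcription factors of the pathway were among the ventral genes of smallest p. Of 5 measured, 3 were lower in MT ventral prostate: Irf7, Irf9 and Stat2. Irf7, which amplifies type I interferon production, had log2 signals of 6.79, 6.82 and 6.56 in MT, against 7.42, 7.44 and 7.43 in WT. The groups were well apart, and the difference was -0.70 ± 0.10 (SE, adjusted p = 0.000746, limma), a level 0.615 times that of WT. Stat2, a STAT protein of the type I complex, had 8.21, 8.28 and 8.25 in MT, against 8.79, 8.90 and 8.85 in WT. Its difference was -0.60 ± 0.077 (SE, adjusted p = 0.000289, limma). Stat2's second, dimmer probe set differed by -0.44. Irf9, the DNA-binding partner of the STAT proteins, had 7.70, 7.70 and 8.11 in MT, against 8.44, 8.26 and 8.54 in WT (-0.58 ± 0.12 SE, adjusted p = 0.00668, limma). MT array 3 was the highest of its group and still lay below every WT array. Irf1 and Irf8, the other two factors, did not pass, and their 95% intervals ran from -0.38 to 0.12 for Irf1 and from -0.26 to 0.22 for Irf8.

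The antiviral effectors held most of the other ventral calls. Among 10 other antiviral effectors 6 were lower in MT (Mx1, Rsad2, Isg20, Rtp4, Xaf1 and Mx2). Mx1, a GTPase of the antiviral Mx family, had 6.74, 6.92 and 6.96 in MT, against 7.48, 7.47 and 7.36 in WT. The groups did not overlap (-0.56 ± 0.11 SE, adjusted p = 0.00511, limma). Rsad2 (viperin), which makes a chain-terminating nucleotide, averaged 9.45 ± 0.25 in MT and 10.09 ± 0.15 in WT (SD, n = 3 each; adjusted p = 0.0101, limma); without both arrays that stood apart its p was 0.0515. Mx2 averaged 3.72 ± 0.53 in MT and 4.65 ± 0.12 in WT (SD, n = 3 each; adjusted p = 0.00822, limma). Both means lay under 4.73, the lower quartile of probe set signals in this lobe, so the Mx2 difference is one between dim signals. Of the 4 measured genes of the oligoadenylate synthetase family, which start RNA decay or resemble the enzymes that do, Oasl1 and Oasl2 were lower. Oasl1 had 5.10, 5.07 and 5.19 in MT, against 5.64, 5.81 and 5.76 in WT, with no overlap (-0.62 ± 0.084 SE, adjusted p = 0.000447, limma).

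The Ifit family, whose proteins bind viral RNA, moved in both directions in ventral prostate. Ifit3 was lower, with means of 8.07 ± 0.25 in MT and 8.62 ± 0.21 in WT (SD, n = 3 each; adjusted p = 0.0334, limma). Ifit2 was the single gene of the list that was higher in MT: 7.97, 7.83 and 8.25 in MT, against 7.53, 7.66 and 7.56 in WT (0.44 ± 0.12 SE, adjusted p = 0.0353, limma). Its MT arrays all lay above its WT arrays. Ifit1, with 2 cores in its promoter, averaged 8.77 ± 0.27 in MT and 9.41 ± 0.09 in WT (SD, n = 3 each), and just missed the threshold (-0.64, adjusted p = 0.052, limma). Cxcl10, a chemokine that attracts activated T cells, averaged 6.65 ± 0.11 in MT and 7.06 ± 0.12 in WT (SD, n = 3 each; adjusted p = 0.0116, limma); Cxcl9 did not pass. Usp18, which removes ISG15 from proteins and damps the type I receptor, was the single called gene of 4 in the ISG15 and ubiquitin group, and Parp9 the single called gene of 3 Parp genes. None of the 5 sensors, the 5 antigen processing genes or the 2 guanylate-binding proteins passed in this lobe by limma. At an unadjusted p under 0.05 the counts were 2 sensors, 1 antigen processing gene and 0 guanylate-binding proteins.

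The ventral calls differed in how they held when each of the 12 arrays was left out in turn. The calls of Irf7, Irf9, Stat2, Oasl1, Isg20, Rtp4, Mx1, Mx2 and Rsad2 passed in all 12 refits. Cxcl10 was lost without WT ventral array 1 (adjusted p = 0.0585, limma), and Xaf1 without WT ventral array 1 or 3 (adjusted p up to 0.061, limma). Oasl2 and Usp18 were lost without MT ventral array 1 or 2 or WT ventral array 1 or 3, with adjusted p up to 0.121 and 0.0928 by limma. Ifit3 was lost without any of 5 ventral arrays, all but MT array 3 (adjusted p up to 0.12, limma). Ifit2 was lost without any ventral array but MT array 2 (adjusted p up to 0.13, limma). Parp9 was lost in 9 of 12 refits, all but those without WT ventral array 2 or MT lateral array 1 or 2 (adjusted p up to 0.15, limma). Refitted with the 6 ventral arrays alone, Ifit2, Ifit3, Usp18, Mx2, Cxcl10 and Parp9 did not pass, and Mx2 was at the threshold (adjusted p = 0.05001).

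**Figure D2:**
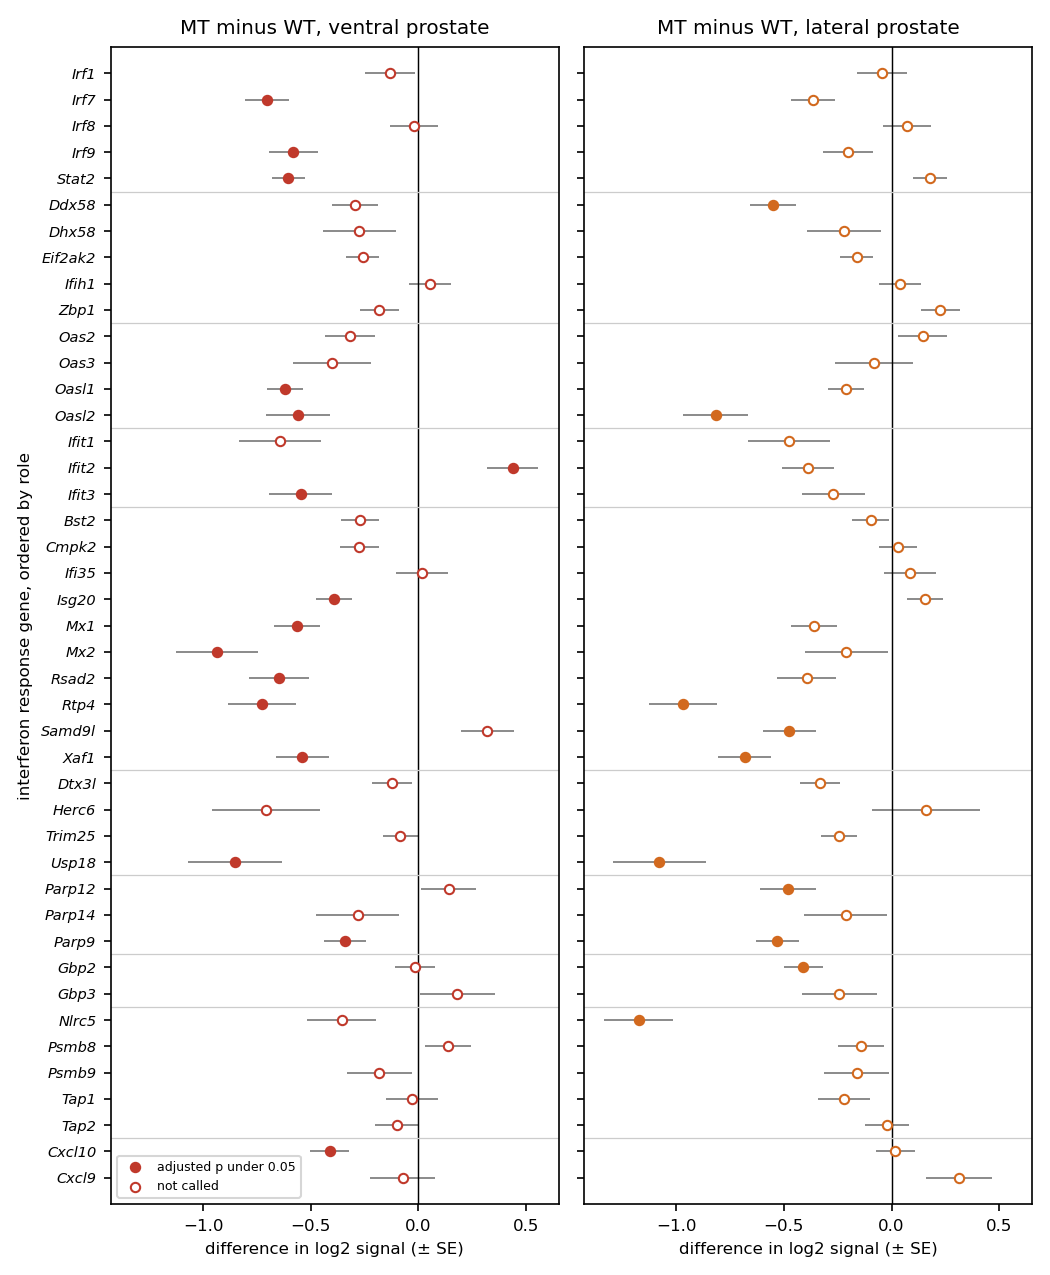
The difference in log2 signal, MT minus WT, of each of the 43 genes in ventral prostate and in lateral prostate, with its SE as a bar; filled points passed an adjusted p under 0.05 by limma and open points did not. In ventral prostate 15 filled points lie left of 0 and 1 (Ifit2) right of it, and in lateral prostate all 10 filled points lie left of it.

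In lateral prostate 10 of the 43 genes were lower on the arrays labelled MT, 0 were higher and 33 did not pass by limma. An unadjusted p under 0.05 was reached by 20, against 19.5% of all genes. Over all genes 5.03% were called, 3.42% lower and 1.62% higher, so that 32.1% of all calls were higher; this was 42.9% after quantile normalisation and 44.4% with each array centred on its median. The median difference was -0.21, against -0.0025 over all genes, and the range ran from -1.17 (Nlrc5) to 0.31 (Cxcl9, dim in both groups). Cxcl9's second probe set, nearly as bright, differed by -0.09 in lateral prostate. In ventral prostate that probe set differed by -0.61, against -0.07 on the one used. The MT arrays lay below all WT arrays for 19 genes, against 15.7% of all genes, and above them for 4, against 11.2% of all genes. Without the 2 arrays that stood apart 6 genes were lower, and 6 without MT lateral array 2 alone.

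The gene of smallest p in lateral prostate was Nlrc5, the transactivator of MHC class I genes. Its log2 signals were 4.06, 3.93 and 4.41 in MT, against 5.60, 5.04 and 5.29 in WT. The difference was -1.17 ± 0.16 (SE, adjusted p = 0.000524, limma), and all MT arrays lay under 4.52, the lower quartile of signals in this lobe, so the MT level is not well resolved. The other 4 antigen processing genes of the list, which cut peptides or carry them to MHC class I, did not pass in either lobe. The 95% intervals of the lateral difference were -0.37 to 0.09 for Psmb8, -0.48 to 0.16 for Psmb9, -0.48 to 0.04 for Tap1 and -0.24 to 0.20 for Tap2. Outside the list, the measured MHC class I group did not pass in either lobe by limma. Its lateral differences lay above 0: 0.16 for H2-K1, 0.21 for H2-D1, 0.17 for B2m and 0.07 for Tapbp. Their relation to the Nlrc5 difference was not tested.

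Rtp4, a chaperone that helps receptors reach the cell surface, had 6.17, 5.73 and 5.57 in MT lateral prostate, against 6.99, 6.70 and 6.68 in WT. The 3 MT arrays lay below all WT arrays (-0.97 ± 0.16 SE, adjusted p = 0.00218, limma). Ddx58 (RIG-I), a sensor of viral RNA, averaged 6.62 ± 0.21 in MT and 7.17 ± 0.06 in WT (SD, n = 3 each; -0.55, adjusted p = 0.00776, limma). It was the only one of 5 genes in the sensor group to pass in a lobe by limma. Gbp2, a guanylate-binding protein that acts on vacuoles holding pathogens, averaged 5.15 ± 0.07 in MT and 5.56 ± 0.09 in WT (SD, n = 3 each; -0.41, adjusted p = 0.0198, limma). Of 3 Parp genes, which belong to the ADP-ribosyltransferases, Parp9 and Parp12 were lower. Samd9l, an antiviral protein that inhibits translation, was lower as well; its array values and those of Parp12 are given with the lobe comparison. None of the 5 transcription factors passed in lateral prostate by limma, and 2 reached an unadjusted p under 0.05. Irf7 differed by -0.36 (adjusted p = 0.0563), Irf9 by -0.20 and Stat2 by 0.18. The transcription factors had a median difference of -0.04 in lateral prostate, and of -0.58 in ventral prostate.

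Leaving out single arrays ended some lateral calls. Oasl2, Rtp4, Ddx58, Xaf1, Parp9 and Nlrc5 passed in all 12 refits. Usp18 was lost without MT lateral array 2 (adjusted p = 0.0587, limma). Gbp2 was lost without array 2 or 3 of either lateral group (adjusted p up to 0.0829, limma). Samd9l was lost in 8 of 12 refits, each without 1 of the 6 lateral arrays, MT ventral array 1 or WT ventral array 2 (adjusted p up to 0.144, limma). Parp12 was lost in 9, all but those without WT ventral array 2 or 3 or WT lateral array 2 (adjusted p up to 0.191, limma). Without both arrays that stood apart Ddx58 was at an adjusted p of 0.0531 by limma.

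Lower in MT in both lobes were 5 of the 43 genes: Oasl2, Rtp4, Usp18, Xaf1 and Parp9. Over all genes 39 of 18194 were. The differences of 27 of the 43 lay below 0 in both lobes, against 24.2% of all genes. Oasl2, of the oligoadenylate synthetase family, had 7.60, 7.56 and 7.94 in MT ventral prostate, against 8.43, 8.08 and 8.27 in WT ventral prostate. In lateral prostate it had 6.23, 6.75 and 6.61 in MT, against 7.32, 7.54 and 7.18 in WT. MT and WT arrays did not overlap in either lobe, with differences of -0.56 ± 0.15 (SE, adjusted p = 0.0324, limma) in ventral and -0.82 ± 0.15 (SE, adjusted p = 0.00496, limma) in lateral prostate. Rtp4 in ventral prostate had 7.65, 7.63 and 8.09 in MT, against 8.64, 8.42 and 8.48 in WT (-0.73 ± 0.16 SE, adjusted p = 0.0113, limma). Rtp4's second probe set differed by -0.40 in ventral and by -0.08 in lateral prostate, so its lateral size rests on the brighter probe set.

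Xaf1, which promotes cell death, had 7.38, 7.22 and 7.32 in MT ventral prostate, against 7.93, 7.68 and 7.93 in WT ventral prostate. In lateral prostate it had 6.69, 6.78 and 6.56 in MT, against 7.31, 7.63 and 7.13 in WT. The differences were -0.54 ± 0.12 (SE, adjusted p = 0.0142, limma) and -0.68 ± 0.12 (SE, adjusted p = 0.0043, limma). Xaf1's second, dimmer probe set differed by 0.24 and 0.08, and with the mean of both neither lobe passed (adjusted p = 0.378 ventral and 0.0955 lateral, limma). Parp9, which works with Dtx3l in a complex that modifies histones and viral proteins, had 7.74, 7.81 and 7.72 in MT ventral prostate, against 8.18, 7.96 and 8.14 in WT ventral prostate. It had 7.19, 7.53 and 7.47 in MT lateral prostate, against 7.92, 7.88 and 7.98 in WT lateral prostate. The lateral difference was -0.53 ± 0.099 (SE, adjusted p = 0.0058, limma), and the ventral one -0.34 ± 0.099 (SE, adjusted p = 0.0463, limma). Usp18 averaged 5.97 ± 0.50 in MT and 6.82 ± 0.19 in WT ventral prostate (SD, n = 3 each; adjusted p = 0.026, limma). In lateral prostate it averaged 4.72 ± 0.37 in MT and 5.80 ± 0.12 in WT (SD, n = 3 each; adjusted p = 0.0101, limma). Its differences of -0.85 and -1.08 were the largest of the 5, and MT array 3 was the highest of its group in each lobe.

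**Figure D3:**
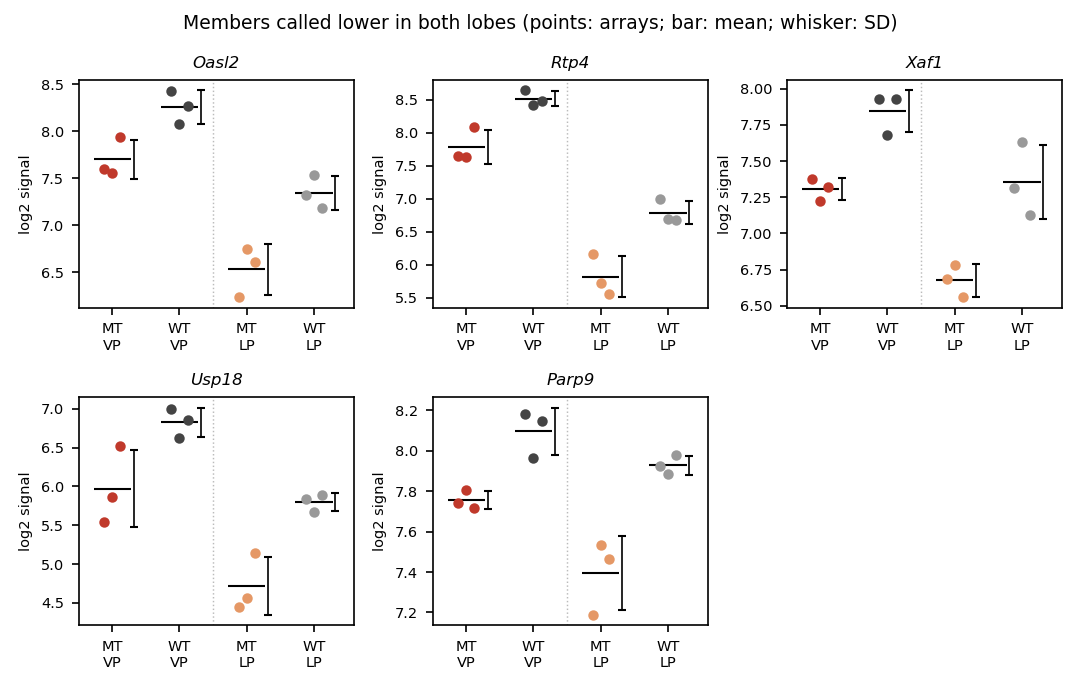
Log2 signal of the 5 genes lower in MT in both lobes on each array (points), with group means (bars) and SDs (whiskers), MT left of WT in each lobe (VP, ventral; LP, lateral). The MT and WT points of a lobe do not overlap for any of the 5 genes.

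Averaged over both lobes, the difference between MT and WT was below 0 for 37 of the 43 genes, against 51.8% of all genes. It passed for 17, all lower. Over all genes 5.63% were called in this average, 2.93% lower and 2.7% higher. The median was -0.21, against -0.0051 over all genes. The largest average differences were those of Usp18 (-0.97, adjusted p = 0.00159), Rtp4 (-0.85, adjusted p = 0.000361) and Nlrc5 (-0.76, adjusted p = 0.000866), all by limma. Ifit1 and the kinase Eif2ak2 (PKR), which passed in neither lobe alone, passed in the average (-0.56, adjusted p = 0.0256, and -0.21, adjusted p = 0.0365, limma). Ifit1 lost this without MT ventral array 1, WT ventral array 1 or 2, MT lateral array 1 or 2 or WT lateral array 2 or 3 (adjusted p up to 0.0725), and Eif2ak2 without any array but WT lateral array 1 (adjusted p up to 0.0936). The others were Irf7 (-0.53), Irf9 (-0.39), Stat2 (-0.21), Oasl1 (-0.41), Oasl2 (-0.69), Ifit3 (-0.41), Mx1 (-0.46), Mx2 (-0.57), Rsad2 (-0.52), Ddx58 (-0.42), Xaf1 (-0.61) and Parp9 (-0.44). For Stat2 the average joins lobes of opposite sign on its brighter probe set, and it was lost without any array but MT ventral array 2 or 3 or MT lateral array 2 (adjusted p up to 0.0927, limma). Ifit3 lost it without MT ventral array 1 or 2, WT ventral array 2, MT lateral array 2 or 3 or WT lateral array 1 or 2 (adjusted p up to 0.0876), and Mx2 without WT ventral array 1 or 2, MT lateral array 3 or WT lateral array 2 (adjusted p up to 0.0598).

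A call in 1 lobe and none in the other does not show that the lobes differ, so the difference between the 2 effects was tested directly, as the lateral effect minus the ventral effect. It passed for 7 of the 43 genes: 3 were higher and 4 lower in the lateral effect. Over all genes 9.31% passed, 2.8% higher and 6.51% lower, so the lower count of the list is close to its background. With each array centred on its median the list split into 5 higher and 2 lower, and 52.3% of the calls over all genes were higher, against 30.1% as first fitted and 40.4% after quantile normalisation.

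**Figure D4:**
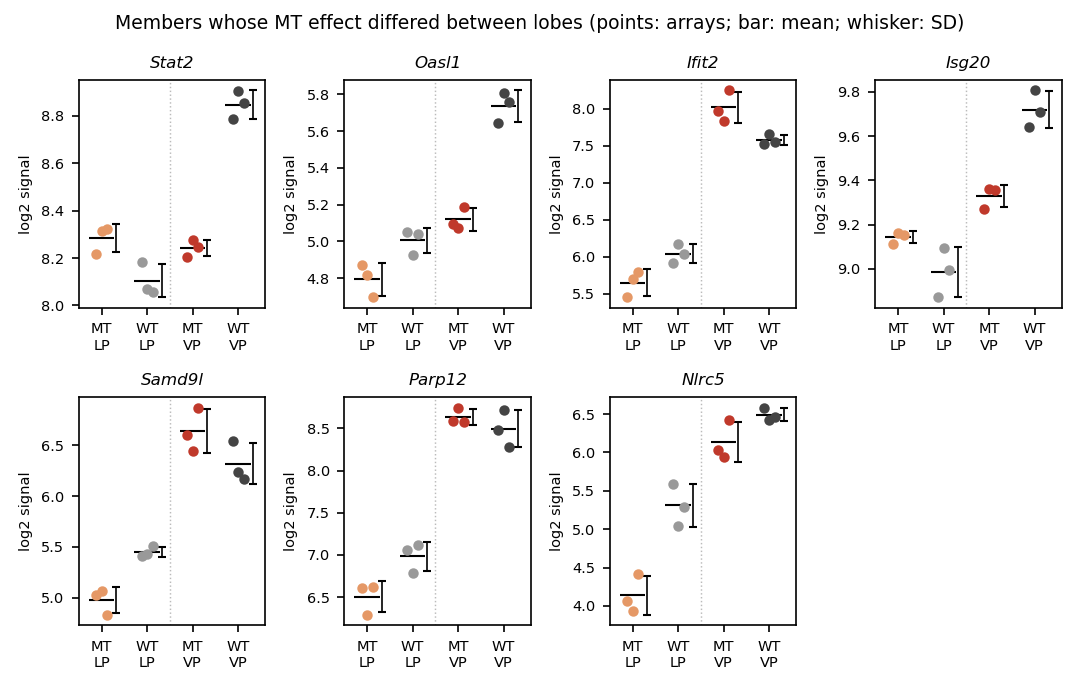
Log2 signal on each array (points) of the 7 genes whose MT effect differed between lobes, with group means (bars) and SDs (whiskers); lateral groups (LP) lie left of ventral groups (VP) and MT left of WT. MT and WT are closer in lateral than in ventral prostate for Stat2, Oasl1 and Isg20, and for Ifit2 the MT points lie below WT in lateral and above WT in ventral prostate.

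Stat2, Oasl1 and Isg20 passed as lower in MT in ventral prostate and did not pass in lateral prostate. Stat2 in lateral prostate had 8.21, 8.31 and 8.32 in MT, against 8.19, 8.07 and 8.06 in WT, all MT arrays above the WT arrays. These are values of the brighter probe set, and the dimmer one differed by -0.07 in lateral prostate, in the other direction. The lateral effect of Stat2 exceeded the ventral one by 0.78 ± 0.11 (SE, adjusted p = 0.000578, limma), and by 0.58 (adjusted p = 0.00927, limma) with the mean of both probe sets. Isg20, an RNA exonuclease, had 9.11, 9.16 and 9.15 in MT lateral prostate, against 8.87, 9.09 and 8.99 in WT lateral prostate. In ventral prostate it had 9.27, 9.36 and 9.36 in MT, against 9.64, 9.81 and 9.71 in WT, a fall without overlap (-0.39 ± 0.083 SE, adjusted p = 0.01, limma). The difference between its effects was 0.55 ± 0.12 (SE, adjusted p = 0.0101, limma). Oasl1 in lateral prostate had 4.87, 4.82 and 4.69 in MT, against 5.05, 4.93 and 5.04 in WT. Its MT arrays were lower in both lobes, and the difference of 0.41 ± 0.12 (SE, adjusted p = 0.047, limma) was lost in 9 of 12 single-array omissions, all but those without MT ventral array 3, WT ventral array 1 or MT lateral array 3 (adjusted p up to 0.104).

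For Ifit2, Parp12, Samd9l and Nlrc5 the lateral effect was the lower one. Ifit2 in lateral prostate had 5.45, 5.71 and 5.80 in MT, against 5.92, 6.17 and 6.03 in WT. So its MT arrays lay below WT in lateral prostate (-0.39, adjusted p = 0.0818, limma) and above WT in ventral prostate, and the effects differed by -0.83 ± 0.17 (SE, adjusted p = 0.00739, limma). Samd9l had 5.03, 5.07 and 4.83 in MT lateral prostate, against 5.41, 5.43 and 5.51 in WT lateral prostate (-0.47 ± 0.12 SE, adjusted p = 0.0403, limma). In ventral prostate it had 6.60, 6.44 and 6.87 in MT, against 6.55, 6.24 and 6.17 in WT, and the groups overlapped. Its effects differed by -0.79 ± 0.17 (SE, adjusted p = 0.011, limma). Parp12, an ADP-ribosyltransferase that restricts viruses, had 6.61, 6.29 and 6.61 in MT lateral prostate, against 7.05, 6.79 and 7.11 in WT lateral prostate (-0.48 ± 0.13 SE, adjusted p = 0.0479, limma). In ventral prostate it had 8.59, 8.75 and 8.57 in MT, against 8.48, 8.72 and 8.28 in WT, again with overlap. Its effects differed by -0.62 ± 0.18 (SE, adjusted p = 0.0487, limma). Nlrc5 in ventral prostate had 6.04, 5.94 and 6.43 in MT, against 6.58, 6.42 and 6.46 in WT (-0.36, adjusted p = 0.186, limma). Its effects differed by -0.82 ± 0.23 (SE, adjusted p = 0.0373, limma). The difference was kept in all 12 single-array omissions for Stat2, Isg20, Ifit2 and Samd9l. Parp12 lost it in 9, all but those without WT ventral array 2, MT lateral array 1 or WT lateral array 2 (adjusted p up to 0.115, limma). Nlrc5 lost it in 8, all but those without MT ventral array 1 or 2, MT lateral array 3 or WT lateral array 2 (adjusted p up to 0.0974, limma). Without both arrays that stood apart, Stat2, Ifit2 and Nlrc5 still passed, while Isg20 (adjusted p = 0.0505), Samd9l (0.075), Oasl1 (0.096) and Parp12 (0.121) did not by limma.

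The genes that passed in neither lobe include the cytosolic RNA sensor Ifih1 (MDA5), whose promoter holds the core. Its 95% interval ran from -0.15 to 0.27 in ventral and from -0.17 to 0.25 in lateral prostate. Ifi35, which modulates innate signalling, had intervals of -0.24 to 0.28 and -0.18 to 0.34. Herc6, an ISG15 ligase in mouse, differed by -0.71 in ventral prostate with a wide spread, 5.02 ± 0.46 in MT and 5.72 ± 0.54 in WT (SD, n = 3 each), and did not pass (adjusted p = 0.0947, limma). Oas3 lay under the lower quartile of signals in both groups of both lobes, so a difference was hardly measurable for it. Probe sets of 1 gene did not always point the same way. Some probe set had the other sign for 3 genes in ventral prostate (Gbp2, Ifi35 and Xaf1). In lateral prostate this held for 10 (Cmpk2, Cxcl9, Dhx58, Eif2ak2, Herc6, Psmb8, Stat2, Tap1, Xaf1 and Zbp1).

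The list also differed in rank between the lobes of WT mice, given as the percentile of a gene among all genes on its array and without a test. For 33 of the 43 genes (76.7%) all 3 WT lateral arrays ranked below all 3 WT ventral arrays, and for 4 (9.3%) above. Over all genes the shares were 33.1% and 32.9%. The widest gap was that of Ifit1, with a mean percentile of 32.1 in WT lateral against 81.0 in WT ventral prostate. Rsad2 stood at 47.7 in WT lateral against 88.1 in WT ventral prostate, and Ifih1 at 58.4 against 75.6. Mx1 (59.9 against 54.6), Parp9, Tap2 and Ifi35 (96.6 against 93.6) were the 4 that ranked above. In bulk tissue a rank of this kind cannot tell fewer cells of a type from less RNA per cell, and the same holds for every difference given above.

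**Figure D5:**
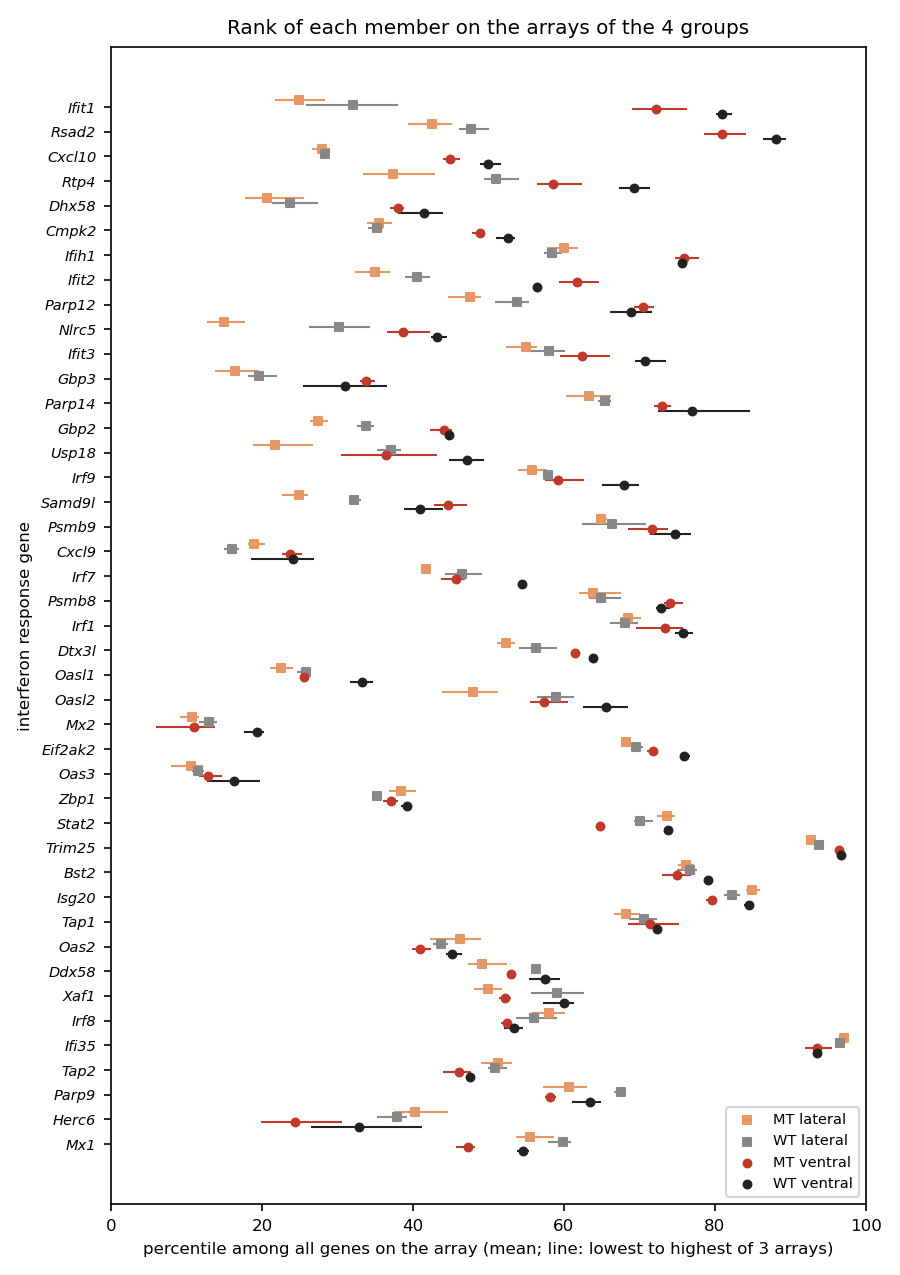
Percentile of each of the 43 genes among all genes on the array, as the mean of 3 arrays with a line from the lowest to the highest, for MT and WT lateral prostate (squares) and MT and WT ventral prostate (circles); genes are sorted by the WT lateral minus WT ventral gap. The gap runs from -48.9 points for Ifit1 at the top to 5.3 points for Mx1 at the bottom.

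The other genes of the interferon pathway gave few calls. Of 44 measured ligands, receptors, signal transducers, inhibitors and MHC genes, 3 were higher and 0 lower in MT ventral prostate, and 1 was higher and 2 lower in MT lateral prostate. These shares lie near those of all genes, which were 5.88% higher and 3.2% lower in ventral and 1.62% higher and 3.42% lower in lateral prostate. The median differences of the 44 were 0.0039 in ventral and 0.0012 in lateral prostate. None of the 5 measured interferons passed in either lobe by limma, nor at an unadjusted p under 0.05 (0 in each lobe). Of these, Ifnb1, Ifna2, Ifna4 and Ifng lay under the lower quartile of signal in both groups of both lobes, so that a difference in them could hardly be measured. At that unadjusted threshold the 44 genes counted 8 in ventral and 14 in lateral prostate, or 18.2% and 31.8%, against 24.7% and 19.5% of all genes. Ifnar2, a chain of the type I receptor, was higher in MT in both lobes. Its ventral signals were 10.50, 10.46 and 10.53 in MT, against 9.45, 9.65 and 9.46 in WT (0.97 ± 0.093 SE, adjusted p = 2.75e-05, limma). Its lateral signals were 9.40, 9.13 and 9.40 in MT, against 8.89, 8.84 and 8.88 in WT (0.44 ± 0.093 SE, adjusted p = 0.0128, limma). With the mean of its probe sets the ventral difference was 0.41 (adjusted p = 0.0264, limma), and the lateral call was lost (0.15, adjusted p = 0.45). The lateral call was also lost without MT lateral array 3 or WT lateral array 2 (adjusted p = 0.0594 and 0.0509). Tlr3, an endosomal receptor for double-stranded RNA, had 10.14, 10.11 and 10.06 in MT ventral prostate, against 9.48, 9.52 and 9.37 in WT ventral prostate (0.65 ± 0.081 SE, adjusted p = 0.000241, limma). In lateral prostate its difference of 0.18 did not pass. Jak2, a kinase of the interferon gamma receptor, was higher in MT ventral prostate (0.45 ± 0.12 SE, adjusted p = 0.0277, limma), and this was lost without any ventral array but MT array 2 (adjusted p up to 0.0963). The MHC class II genes H2-Ab1 (-0.42 ± 0.089 SE, adjusted p = 0.0134) and H2-Eb1 (-0.35 ± 0.089 SE, adjusted p = 0.0346) were lower in MT lateral prostate by limma. H2-Ab1 was lost without array 2 or 3 of either lateral group (adjusted p up to 0.0612), and H2-Eb1 without any 1 of the 6 lateral arrays (adjusted p up to 0.136). H2-Aa (-0.34), Cd74 (-0.33) and the class II regulator Ciita (0.27, the other direction) did not pass in lateral prostate. In the average over both lobes 2 of the 44 were higher (Ifnar2 and Tlr3), against 2.7% of all genes. Another 3 were lower (H2-Ab1, H2-Eb1 and Cd74), against 2.93% of all genes. Cd74 lost this in 10 of 12 single-array omissions and H2-Eb1 in 9.

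Markers of other cell types were read beside these results, since leukocytes and stromal cells also express interferon response genes. Of 23 leukocyte markers, 1 (Csf1r, 0.61, adjusted p = 0.0128) was higher and 0 lower in MT ventral prostate by limma; the Csf1r call ended without MT array 3 or WT array 2 (adjusted p = 0.0555 and 0.0536). Their summed linear signal was 4262 to 5114 in MT ventral prostate, against 4018 to 4631 in WT ventral prostate, with overlap. The differences of 18 of the 23 lay below 0 in ventral prostate, with a median of -0.15, and of 11 in lateral prostate, with a median of 0.0097. Over all genes 54.1% lay below 0 in ventral and 50.6% in lateral prostate. In lateral prostate 1 (Tyrobp, -0.60, adjusted p = 0.00324) was lower and 0 higher by limma, and the sum was 2096 to 2219 in MT, against 2295 to 2317 in WT, without overlap. Ms4a1, Itgam, Ncr1, Ccr7 and Flt3 lay under the lower quartile in both groups of both lobes. Fibroblast markers were higher in MT ventral prostate for 4 of 6 and lower in MT lateral prostate for 4 of 6. Their sums were 8549 to 9353 in MT ventral prostate, against 6816 to 8093 in WT ventral prostate. In lateral prostate the sums were 4320 to 5230 in MT, against 5963 to 6369 in WT. Smooth muscle markers were higher for 4 of 5 in MT ventral prostate (16014 to 18165 in MT, against 11433 to 13082 in WT) and lower for 2 of 5 in MT lateral prostate (18380 to 21640 in MT, against 24634 to 25963 in WT). Of 5 luminal epithelial markers, Pbsn (probasin) was lower in MT ventral prostate (-1.28, adjusted p = 1.72e-06, limma), and the sums were 27702 to 28589 in MT, against 33429 to 34208 in WT. The other luminal markers did not pass there, with differences of 0.18 for Krt8, 0.26 for Cdh1, 0.14 for Epcam and -0.19 for Krt18, and the median of the 5 was 0.14. Krt5 was the one of 4 basal epithelial markers to pass in a lobe, lower in MT lateral prostate. All 4 differed above 0 in ventral and below 0 in lateral prostate, and for 3 the lateral minus ventral difference passed as lower (limma). Their sums were 1438 to 1500 in MT ventral prostate, against 1136 to 1283 in WT ventral prostate. In lateral prostate the basal sums were 2039 to 2162 in MT, against 2604 to 2904 in WT. Of 6 seminal vesicle markers 4 were lower in MT lateral prostate, with sums of 1703 to 9236 in MT, against 38925 to 41098 in WT. None of 6 endothelial markers passed in either lobe by limma, and 1 in each lobe reached an unadjusted p under 0.05. Of the leukocyte markers 4 (17.4%) did in ventral and 5 (21.7%) in lateral prostate. Over all genes 24.7% did in ventral and 19.5% in lateral prostate. The part of these shifts in the interferon response differences was not tested.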

How the data were processed

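Total RNA of 12 prostate samples was labelled with biotin and hybridised to Affymetrix arrays, and per the submitters' processing notes the authors used Affymetrix Expression Console and RMA. The deposited values are log2 signals per probe set, already background-corrected, normalised and summarised by the authors with RMA. The median signal lay at 6.39 to 6.43 on ventral and 6.05 to 6.06 on lateral arrays, so levels were not compared between lobes. Of 45101 probe sets, 34958 had 1 gene symbol, 932 several and 9211 none, and only those with 1 were used; 34754 symbols were updated through Entrez numbers in a GRCm38.p6 gene table. No values were filtered, so all 43 measured genes were tested.

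A model with 4 group means was fitted with limma 3.58.1 in R 4.3.3 on all 12 arrays (8 residual degrees of freedom), with Benjamini-Hochberg adjustment over 18194 genes. The contrasts were MT minus WT in ventral and in lateral prostate, their mean, and lateral minus ventral effect. The script was tested on simulated data. The genes and gene lists were chosen with earlier results of these data known. Named are all genes of the list past an adjusted p of 0.05 in a lobe or in the mean. Array values are given for the 5 called genes of smallest p in each lobe, for called genes against the main direction, for those whose lobe difference passed, and for others where 2 lobes are set side by side. No detection calls were used; a signal under the lower quartile of probe sets in its lobe (4.73 ventral, 4.52 lateral) is treated as dim. The number of arrays, 3 a group, limits the precision. Alternatives were the arrays of 1 lobe alone, a replicate block, quantile normalisation, median centring, a filter on the dimmest 40% of genes, the mean of a gene's probe sets, a trended and robust variance, array weights, stricter thresholds and leaving out arrays. No array names a batch, scan or slide in the sources used here.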

Additional observations from a re-analysis of the deposited data

Results flagged for a closer look

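Each result here was picked because the knockout effect differed between lobes in the direct test (lateral effect minus ventral effect, adjusted p under 0.05, limma). Among the interferon response genes these were Stat2 (0.78), Oasl1 (0.41) and Isg20 (0.55), with the higher effect in lateral prostate, and Ifit2 (-0.83), Parp12 (-0.62), Samd9l (-0.79) and Nlrc5 (-0.82), with the lower effect there. Ifit2 lay above WT on all MT ventral arrays and below WT on all MT lateral arrays, and Stat2 and Isg20 showed the opposite pattern (Stat2 on its brighter probe set), while the dimmer probe set of Stat2 differed by -0.07 in lateral prostate. Of the other genes named, Ifnar2 (-0.53) and Tlr3 (-0.47), both of the pathway, and the leukocyte marker Tyrobp (-0.71) met the same criterion. The differences of Ifnar2 (-0.26, adjusted p = 0.296) and Tlr3 (-0.22, adjusted p = 0.251) did not pass by limma with the mean of all probe sets of a gene. No group had more than 3 arrays, so single arrays were not tested as outliers. The causes of these differences were not tested.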

How the results depend on the processing

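No called difference changed sign under any alternative run. Each of the 12 arrays left out in turn gave ranges as follows. In ventral prostate 9 to 16 genes of the list were lower and 0 to 1 higher, the median was -0.345 to -0.24, and 941 to 1760 of all genes were called (5.17 to 9.67%). In lateral prostate 6 to 12 were lower and 0 higher, the median was -0.241 to -0.187, and 499 to 1168 of all genes were called (2.74 to 6.42%). For the difference between lobes 2 to 4 were higher and 2 to 4 lower, the median was 0.041 to 0.14, and 1103 to 1732 of all genes were called (6.06 to 9.52%). For the average of both lobes 12 to 16 were lower and 0 higher, the median was -0.225 to -0.183, and 778 to 1115 of all genes were called (4.28 to 6.13%).

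Without WT ventral array 3 and MT lateral array 3 together, ventral prostate had 9 lower and 0 higher with a median of -0.342 (860 of all genes called, 4.73%), lateral prostate 6 lower (583, 3.2%), the difference between lobes 2 lower (973, 5.35%), and the average 635 of all genes (3.49%). With the arrays of 1 lobe alone, 0 were higher in ventral prostate, with 965 of all genes called (5.3%). After quantile normalisation, 0 were higher in ventral prostate, and the medians were -0.163 in lateral prostate and 0.149 for the difference. With median centring, the medians were -0.325 ventral, -0.175 lateral and 0.16 for the difference, which had 5 higher and 2 lower; the median of all genes for that difference was then 0.103. Without the dimmest 40% of genes, the difference had 2 lower, and the share of tested genes called was 16.1% ventral, 7.92% lateral, 14.5% for the difference and 9.3% for the average. With the mean of a gene's probe sets, the ventral median was -0.334 and 5 differences between lobes were higher. Array weights gave a ventral median of -0.322 and 7 higher differences. At an adjusted p under 0.01, 6 were lower and 0 higher in ventral prostate (666 of all genes, 3.66%), 6 lower in lateral prostate (396, 2.18%), 1 lower and 1 higher for the difference (723, 3.97%) and 11 lower in the average (494, 2.71%). With an added 1.5-fold change, the counts were 7 lower and 0 higher in ventral prostate (634, 3.49%), 5 lower in lateral prostate (423, 2.33%), 1 higher for the difference and 5 lower in the average (233, 1.28%). Beyond the stated construction of these settings, the cause of each change was not tested. The other alternatives moved no count by over 1.5 times.

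Whether the replicate numbers pair MT with WT arrays within a lobe is not stated in the labels. Deviations of same-numbered MT and WT arrays correlated at 0.037, 0.116 and 0.029 in ventral and at -0.0071, 0.039 and -0.0038 in lateral prostate. MT ventral arrays 2 and 3 and MT lateral array 2 correlated best with the WT array of their number, and the other MT arrays did not. With 3 arrays a group, these correlations cannot settle whether the arrays were paired. Whether same-numbered ventral and lateral arrays of a genotype stem from the same mouse is not stated in the labels and was not checked. The lobe difference and the average treat these arrays as independent. With the replicate block, 13 genes of the list were lower and 1 higher in ventral prostate and 9 lower in lateral prostate. Among uncalled differences, 20 of 612 recomputed ventral, 23 of 750 lateral and 27 of 782 lobe differences changed sign. With 3 arrays a group, smaller differences may have been missed, and Oas3, Mx2 and lateral Nlrc5, Cxcl9 and Gbp3 were limited by dim signal.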
